A study of Rattus norvegicus with 9 samples.

Results

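The genes examined were 37 cell cycle and replication genes, measured in ventral spinal cord from rat embryos (embryonic day 14). A probe set of the array was taken as a member where its annotation gave a single gene symbol and that symbol was on the list. Of the 37 genes, 35 had at least 1 such probe set, of 14217 genes with a symbol on the array. They came to 48 probe sets, with 1 for each of 26 genes and several for the other 9. Tpx2 and Rrm2 had none and were not analysed here. By role the list held the mitotic cyclins and Cdk1 (4 genes), the G1 and G1/S cyclins and their kinases (8), mitotic spindle and kinase genes (8), spindle checkpoint and anaphase genes (4), subunits of the MCM helicase (6), the replication clamp and nucleotide supply (4), and inhibitors of the cyclin-dependent kinases (3).

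Each of 9 Affymetrix arrays carried RNA of 1 pool of 5 embryos. In 4 pools the embryos carried human SOD1 with the G93R mutation (the titles add the name Roth), and in 4 pools they carried wild-type human SOD1 (the titles add the name Chan). SOD1 is a copper and zinc superoxide dismutase, and mutations in it cause an inherited motor neuron disease, familial amyotrophic lateral sclerosis. The remaining pool, titled SDneg, was the negative control, although its description also calls its embryos positive. Each transgene came under a single set of labels, so the mutation, the rat line and the place of insertion cannot be told apart. The sources used here give neither the promoter that drives each transgene nor whether pools shared a litter. A tag, le2, which they do not explain, stands in the titles of replicates 2, 3 and 4 of either transgenic group. The titles of replicate 1 of both groups and of the negative control lack it.

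Cells divide by passing through G1, DNA replication (S phase), G2 and mitosis. D-type cyclins with Cdk4 or Cdk6, and E-type cyclins with Cdk2, phosphorylate the retinoblastoma protein family and free E2F factors, which turn on replication genes such as those of the MCM helicase. Genes of G2 and mitosis, such as Cdc20, are held down in resting cells by the DREAM complex through a promoter element called CHR. In the embryonic spinal cord, progenitors divide next to the central canal, while motor neurons of the ventral cord leave the cycle early and express inhibitors such as Cdkn1b (p27) and Cdkn1c (p57).

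The promoters of the members were searched for letters tied to these roles. The windows searched were the 250 bases before the annotated gene start, from RefSeq on the rat build GRCr8, and 27 of the 37 genes had an entry. The E2F letters searched on both strands were TTTGGCGC, TTTCCCGC, TTTGCCGC and TTTCGCGC, which can overlap one another. They occurred in 1.73% of 33469 promoters in the table and in 6 of the 27 member promoters, those of Mcm2, Mcm5, Mcm6, Mcm7, Cdk1 and Tyms. Among the MCM helicase genes 4 of 5 promoters held them. The CHR letters TTTGAA and TTCGAA occurred in 17.4% of the table and in 11 of 27 member promoters. The CCAAT box, CCAAT, occurred in 34.02% of the table and in 19 of 27. Shown here are Mcm5 and Mcm7, with the E2F letters in capitals, as replication genes, and Cdc20, with the CHR and CCAAT letters in capitals, as a mitotic gene. Mcm5 lies at chr19:13488563-13488812 (plus strand), Mcm7 at chr12:22163179-22163428 (minus strand) and Cdc20 at chr5:137255800-137256049 (minus strand), each window printed on its gene's strand. The long capital run in Mcm5 is a pair of overlapping matches on opposite strands, and a match is a description of the letters, not evidence of a bound site.
Mcm5: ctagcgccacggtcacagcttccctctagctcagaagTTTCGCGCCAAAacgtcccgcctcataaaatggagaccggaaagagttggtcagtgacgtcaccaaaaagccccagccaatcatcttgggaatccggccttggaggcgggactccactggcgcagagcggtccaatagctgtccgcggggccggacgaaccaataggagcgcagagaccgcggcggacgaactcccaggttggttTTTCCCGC
Mcm7: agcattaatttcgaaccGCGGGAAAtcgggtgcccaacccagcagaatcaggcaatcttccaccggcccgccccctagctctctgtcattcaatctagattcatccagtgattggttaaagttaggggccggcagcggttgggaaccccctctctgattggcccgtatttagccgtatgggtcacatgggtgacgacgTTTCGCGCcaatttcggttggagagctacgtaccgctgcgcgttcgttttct
Cdc20: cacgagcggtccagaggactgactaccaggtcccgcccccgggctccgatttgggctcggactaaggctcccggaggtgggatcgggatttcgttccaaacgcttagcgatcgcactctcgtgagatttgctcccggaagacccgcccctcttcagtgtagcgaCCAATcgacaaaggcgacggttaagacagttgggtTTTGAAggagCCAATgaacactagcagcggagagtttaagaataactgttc

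Markers of cell types were counted against the filter on dim probe sets. The filter was set on the mean log2 value over the 9 pools and equals an intensity of about 17.3. Of all 14217 genes with a symbol, 9868 had a probe set above it. Of 15 genes of postmitotic neurons all 15 were above it, as were 9 of 12 neural progenitor genes with a probe set. Of 7 genes of blood and microglia 0 were above it, of 6 of endothelium 1, of 12 of meninges, mesenchyme and cartilage 2, and of 7 of sensory ganglia 5. The shares of progenitor and sensory ganglion genes were near that of all genes. RNA quality differed between the groups. The 3'/5' intensity ratio of the beta-actin control probe sets was 7.31 ± 0.465 (SD, n = 4) in the mutant pools, 11.3 ± 5.29 (SD, n = 4) in the wild-type pools, with 6.66 in the control (exact two-sided permutation test between the transgenic groups, p = 0.0286, the smallest that 4 against 4 pools can give). Wild-type replicate 2 stood apart at 19.2. Without it the difference was -1.33 (exact permutation p = 0.0571), where the difference over all 8 pools was -3.97. The groups did not overlap with or without that pool, as the lowest wild-type ratio was 8.19 and the highest mutant ratio 7.98. In whole-tissue RNA, fewer cells of a type and less RNA per cell cannot be told apart.

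Several genes that mark dividing cells, such as Mki67 and Top2a, gave low signals. Over all 14217 genes with a symbol, 9868 had a probe set above the filter. Among the 35 members 25 had one, a similar share, and could be tested through 29 probe sets. The other 10 were Ccna2, Cdk1, Cdk2, Cdk6, Mki67, Top2a, Aurkb, Bub1, Bub1b and Mcm3, and among their 12 probe sets the highest value in any pool was 23.7. Mki67, the gene of the proliferation antigen Ki-67, read 4.95, 13.7, 17.5 and 10.7 in the mutant pools, 17.9, 9.18, 12.8 and 4.12 in the wild-type pools, with 6.21 in the control. Its range in either group spanned nearly the whole range of all pools, and no difference could be measured at this signal. Top2a, the topoisomerase that untangles replicated chromosomes, had 2 probe sets, and the brighter had means of 9.44 ± 5.03 and 8.57 ± 7.03 (SD, n = 4 each) in mutant and wild-type pools. Some inhibitors and G1 genes gave strong signals: Cdkn1c lay between 2493 and 3333 and Cdk4 between 1795 and 2115 over the 9 pools. Intensities of different probe sets are not comparable as levels, so these values do not rank the genes.

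Between mutant and wild-type hSOD1 pools no member differed beyond the spread between pools. At an adjusted p under 0.05 (limma, Benjamini-Hochberg over all 18625 tested probe sets) 0 of 25 members were called, against 3 probe sets or 0.0161% of all tested. At an unadjusted p under 0.05 limma again gave 0 of 25, against a background of 4.93% (2.75% higher in mutant pools, 2.18% lower). The groups overlapped at all 25 members, while they did not overlap at 2.95% of all tested probe sets. On the log2 scale 15 members were higher and 10 lower in mutant pools, with a median difference of 0.04, and over all tested probe sets 53.7% were higher, with a median of 0.01. The direction held under every alternative tried at 10 of the 25 and turned under at least 1 at the other 15, most of them with differences near 0. The differences ran from -0.22 (Cdc20) to 0.73 (Ccnd1), all on the log2(intensity + 8.25) scale, which understates changes of dim genes.

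The intervals set how large a change could have been missed. For this the bounds of each 95% interval were turned back into ratios of intensity by taking the added 8.25 off again at the wild-type mean. The interval excluded a 1.5-fold change of intensity in either direction at 17 of the 25 members, or 68.0%, beside 70.6% of all tested probe sets. Each member was counted by its brightest probe set. Cdkn2c was among the 17, but the log2 interval of its other probe set, -0.33 to 0.67, reached beyond 1.5-fold. For the 8 members with a mean intensity over 100 (a split chosen after the values were seen), all 8 intervals excluded it, as did 92.7% of all tested probe sets of that brightness, and the pooled SD between pools was 0.0750 to 0.170 on the log2 scale. These 8 were Cdk4, Bub3, Mcm6, Mcm7, Pcna, Rrm1, Cdkn1b and Cdkn1c. The 8 members whose interval reached 1.5-fold were Ccnb2, Ccnd1, Ccnd2, Ccne2, Cenpf, Birc5, Aurka and Cdc20, all of mean intensity under 100. The interval of Ccnd1 ran from 0.888-fold to 4.01-fold, so for it a large rise was not excluded.

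**Figure D1:**
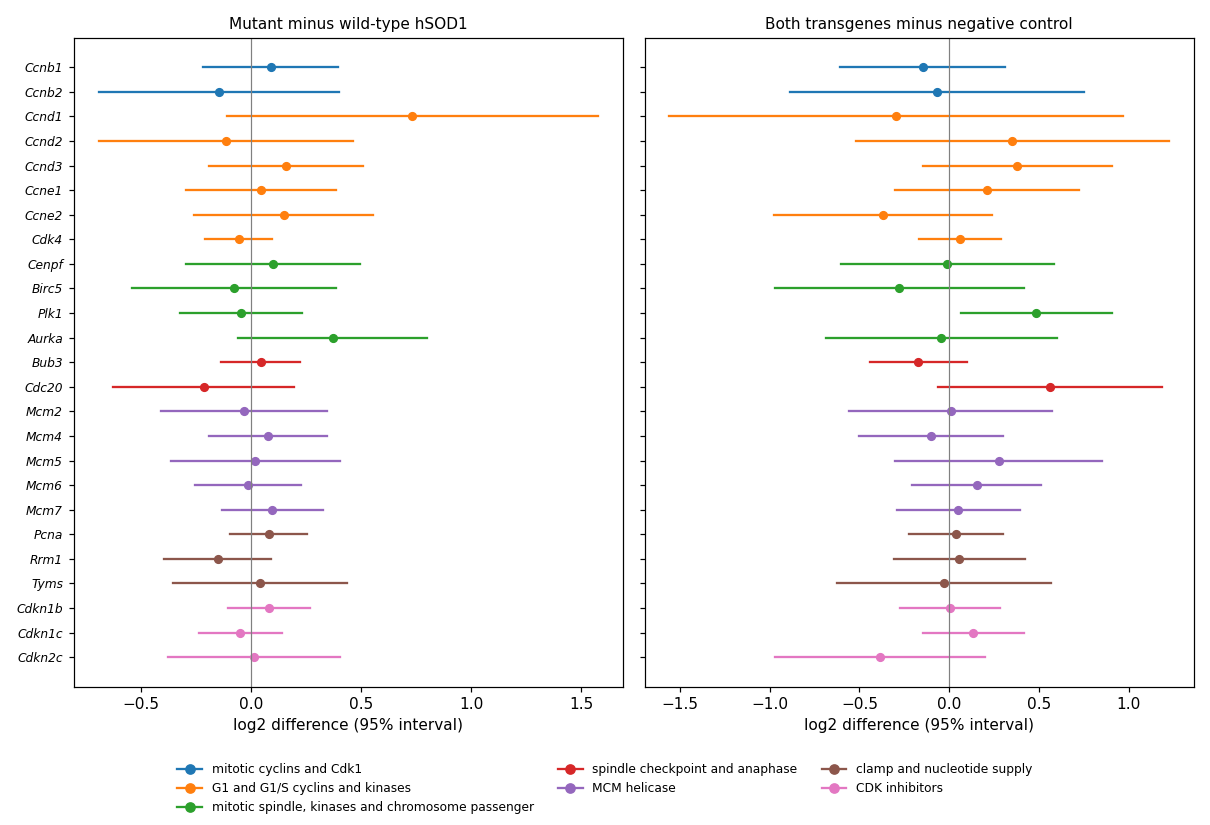
Log2 differences of the 25 members above the filter (points) with limma's 95% intervals (lines), coloured by role, on the left for mutant minus wild-type hSOD1 (4 pools each) and on the right for the mean of both transgenic groups minus the 1 negative control pool. On the left every interval crosses 0, with the widest at Ccnd1, and on the right only that of Plk1 lies wholly above 0.

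Among the G1 genes, Ccnd1 (cyclin D1, which carries growth signals into the cycle) had the highest difference of the members. It read 18.6, 33.6, 46.5 and 33.3 in the mutant pools, 50.6, 7.26, 4.56 and 20.4 in the wild-type pools, with 29.8 in the control. Wild-type replicate 1 was the highest of the 9 and wild-type replicates 2 and 3 the lowest, so the groups overlapped widely. The difference was 0.73 (95% interval -0.11 to 1.58, limma unadjusted p = 0.0829, adjusted p = 0.929). It moved to 0.44 with the actin ratio as a covariate and to 0.52 without wild-type replicate 2, and over 22 alternatives it lay between 0.36 and 1.35 with adjusted p from 0.623 to 1.00. The other 2 Ccnd1 probe sets were below the filter.

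Ccnd3, another D-type cyclin, read 68.2, 65.7, 58.1 and 70.3 in the mutant pools, 52.5, 64.9, 42.0 and 76.9 in the wild-type pools, with 45.4 in the control. The mutant values fell inside the wild-type range, and the difference was 0.16 (95% interval -0.19 to 0.51, limma adjusted p = 0.936). Cdk4, the kinase partner of the D-type cyclins, differed by -0.06 (95% interval -0.21 to 0.09), which turned to 0.01 with the actin covariate. Cyclin E2 (Ccne2), which acts at entry into S phase, gave opposite signs in its 2 probe sets above the filter, 0.15 in the brighter and -0.37 in the other (limma unadjusted p = 0.450 and 0.0790). Ccnd2 differed by -0.12, but by 0.12 without wild-type replicate 2 and by 0.35 with the actin covariate, so its direction was not settled. Ccne1 differed by 0.05, and by 0.11 and 0.16 under the same alternatives, but by -0.10 among the arrays with the le2 tag.

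The tested genes of mitosis other than Bub3 were dim, and the scatter of their pools varied by gene. Their pooled log2 SDs ran from 0.0914 (Plk1) to 0.430 (Ccnb2). The median over all tested probe sets of mean intensity 100 or less was 0.234. Ccnb1 (cyclin B1, the activating partner of Cdk1) read 37.2, 35.8, 39.1 and 30.1 in the mutant pools, 35.9, 35.3, 28.1 and 32.5 in the wild-type pools, with 38.6 in the control. The groups overlapped, with a difference of 0.09 (95% interval -0.22 to 0.39, limma adjusted p = 0.960). Aurka, the kinase of the spindle poles, read 43.5, 24.4, 34.3 and 32.5 in the mutant pools, 35.9, 19.2, 24.7 and 18.04 in the wild-type pools, with 29.3 in the control. Wild-type replicates 2 and 4 lay below every mutant pool, but wild-type replicate 1 lay above all mutant pools except replicate 1. The difference was 0.37 (95% interval -0.06 to 0.80, limma unadjusted p = 0.0852, adjusted p = 0.929).

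Cenpf, a kinetochore protein of G2 and mitosis, read 29.6, 36.6, 41.4 and 22.3 in the mutant pools, 34.5, 27.3, 33.7 and 22.4 in the wild-type pools, with 30.7 in the control. Replicate 4 was the lowest of both transgenic groups, and the difference of 0.10 (95% interval -0.30 to 0.50, limma adjusted p = 0.966) turned to -0.0037 without mutant replicate 3. Birc5 (survivin, of the chromosome passenger complex) and Ccnb2 differed by -0.08 and -0.15. Birc5 turned to 0.06 without mutant replicate 1, and Ccnb2 to 0.11 without mutant replicate 2.

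Cdc20 activates the anaphase-promoting complex and so starts the separation of chromosomes. It read 30.9, 31.2, 38.8 and 30.6 in the mutant pools, 56.1, 25.5, 46.4 and 35.1 in the wild-type pools, with 21.7 in the control. All 4 mutant pools lay inside the wild-type range, and the difference was -0.22 (95% interval -0.63 to 0.20, limma adjusted p = 0.935). Without wild-type replicate 2, the pool with the high actin ratio, it was -0.38 (limma unadjusted p = 0.0412, adjusted p = 0.999), and it was -0.49 with the actin covariate (limma unadjusted p = 0.0347, adjusted p = 1.00). Over 22 alternatives the adjusted p lay between 0.751 and 1.00. The other Cdc20 probe set above the filter differed by 0.07, so the probe sets of this gene had opposite signs. Bub3, a checkpoint protein that holds Cdc20 back until chromosomes are attached, differed by 0.04 in both of its probe sets, and the main one turned to -0.03 with the actin covariate.

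The MCM helicase, which opens the DNA ahead of the replication fork, was measured through 5 of its 6 subunits. Mcm7 read 639.9, 874, 806 and 680.4 in the mutant pools, 625.5, 687, 770.2 and 707 in the wild-type pools, with 694 in the control. The mutant range reached higher and enclosed all wild-type pools but the lowest, and the difference was 0.10 (95% interval -0.13 to 0.33, limma adjusted p = 0.948). Mcm4 read 100.2, 76.2, 92.7 and 85.6 in the mutant pools, 83.1, 81.2, 75.2 and 95.04 in the wild-type pools, with 92.6 in the control. These overlapped too, with a difference of 0.08 (95% interval -0.19 to 0.34, limma adjusted p = 0.961). Mcm2, Mcm5 and Mcm6 differed by -0.03, 0.02 and -0.02, and with the actin covariate by 0.15, 0.18 and 0.04. Each of these 3 changed direction under 5 alternatives.

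Mcm5, named after its values were seen, showed a split that did not follow the transgene. It read 43.6, 60.8, 60.01 and 37.4 in the mutant pools, 41.8, 58.3, 58.7 and 39.3 in the wild-type pools, with 39.2 in the control. Replicates 2 and 3 of both groups lay between 58.3 and 60.8, and replicates 1 and 4 lay between 37.4 and 43.6, with the control (39.2) among them. This arrangement, replicates 2 and 3 above 1 and 4 in both groups, was present at Mcm5 and Cdk4 among the 25 members and at 2.53% of all tested probe sets. The numbers carry no pairing in the labels, and replicate 4 bears the le2 tag as replicates 2 and 3 do, so the split does not follow that tag either.

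Of the clamp and nucleotide genes, Pcna, the sliding clamp of the DNA polymerases, read 976, 1004, 936 and 963 in the mutant pools, 974, 810.1, 999 and 896 in the wild-type pools, with 919 in the control. Wild-type replicate 2 was the lowest of the 9. The difference was 0.08 (95% interval -0.09 to 0.25, limma adjusted p = 0.936), and it turned to -0.02 with the actin ratio as a covariate. Rrm1, the large subunit of ribonucleotide reductase, read 282, 329, 316 and 347 in the mutant pools, 329.5, 412, 384 and 301 in the wild-type pools, with 322 in the control. Wild-type replicates 2 and 3 lay above every other pool, and the difference was -0.15 (95% interval -0.40 to 0.09, limma adjusted p = 0.929). It was -0.08 without wild-type replicate 2 and -0.02 with the actin covariate. Tyms, thymidylate synthase, differed by 0.04 and turned to -0.03 with that covariate.

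The inhibitors that hold neurons out of the cycle overlapped between the groups, with narrow intervals at Cdkn1b and Cdkn1c. Cdkn1b read 705, 856, 798 and 792.5 in the mutant pools, 783, 762, 666.5 and 765 in the wild-type pools, with 762 in the control. The lowest pool was in the wild-type group and the next lowest in the mutant group, and the difference was 0.08 (95% interval -0.10 to 0.27, limma adjusted p = 0.941). Cdkn1c differed by -0.05 (95% interval -0.24 to 0.14), which turned to 0.06 with the actin covariate. Cdkn2c (p18, an inhibitor of Cdk4 and Cdk6) differed by 0.01 and 0.17 in its 2 probe sets, and the former ranged from -0.15 to 0.20 over 22 alternatives.

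**Figure D2:**
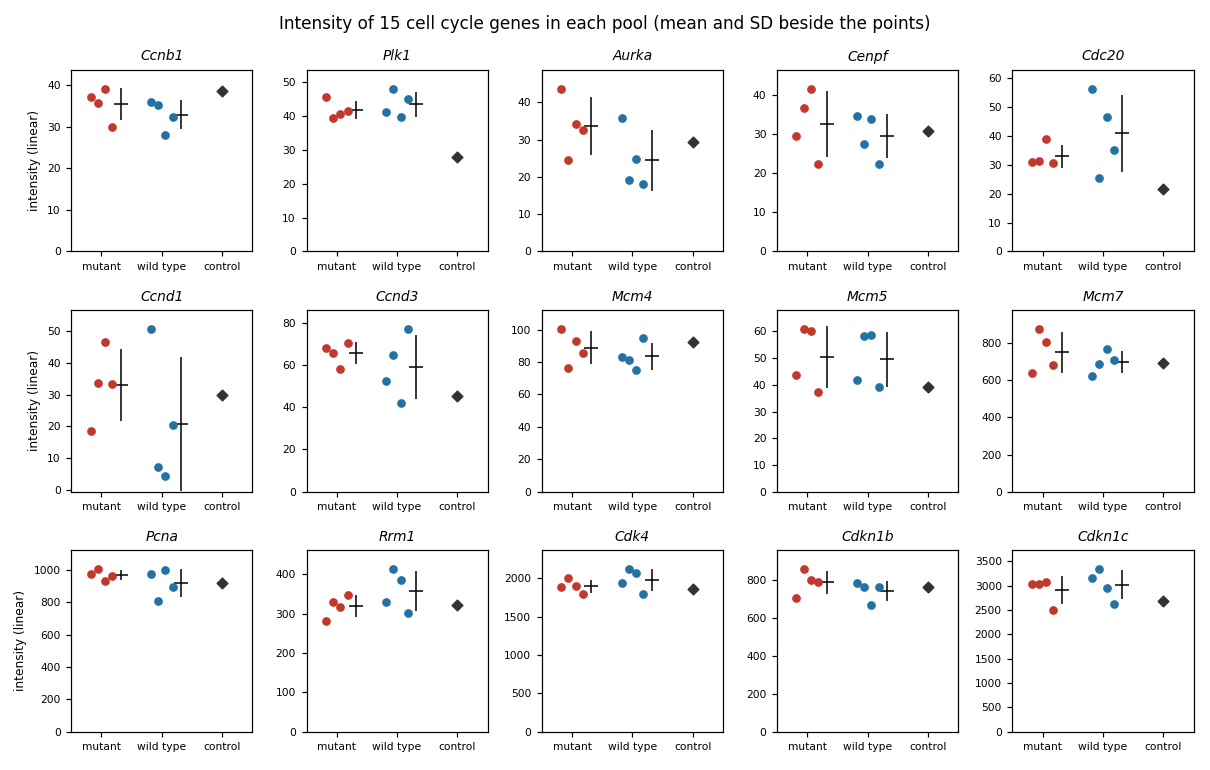
Linear intensity of 15 members in each pool, with 1 panel per gene and its own axis, red for the 4 mutant hSOD1 pools and blue for the 4 wild-type pools in replicate order, and a black diamond for the negative control. The bar beside the points is the mean with its SD, which at Ccnd1 reaches just below 0 in the wild-type pools. The groups overlap in every panel, and the control lies below all 8 transgenic pools at Plk1 and Cdc20.

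Pool-to-pool variation of the members was compared with a test of spread (limma on absolute deviations from the group mean). At the adjusted threshold 0 of 25 members were called, against 0.00537% of all tested probe sets, which is 1 probe set. At an unadjusted p under 0.05 limma gave 4 of 25, Ccnd3, Pcna, Cdc20 and Ccnb2, beside a background of 12.1%. That background is well above what a threshold of 0.05 alone would give, so unadjusted p-values of this test are read only beside it. The cause of the excess was not tested. The SD was larger in the wild-type pools at 13 of 25 members and at 61.5% of all tested probe sets. The median SD of the members' log2 values was 0.143 over mutant pools and 0.175 over wild-type pools, where all tested probe sets had 0.153 and 0.188. With 4 pools in each group, the 95% interval of a ratio of SDs reaches from the ratio divided by 3.93 to the ratio times 3.93, assuming normal values.

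The larger spread was not always in the same group. Ccnd3 had log2 SDs of 0.107 in mutant pools and 0.330 in wild-type pools (limma unadjusted p = 0.0298, adjusted p = 0.366), and its wild-type values from 42.0 to 76.9 enclosed the mutant ones. Pcna had SDs of 0.0420 and 0.135 (limma unadjusted p = 0.0318, adjusted p = 0.370). Cdc20 had 0.133 and 0.405 (limma unadjusted p = 0.0339, adjusted p = 0.376). Ccnb2, another mitotic cyclin, went the other way with 0.582 and 0.175 (limma unadjusted p = 0.0419, adjusted p = 0.396), and its mutant pools read 15.6, 6.37, 21.4 and 29.5. The x_at probe set of Cdkn2c had the smallest p of the 29 member probe sets (SDs of 0.0914 and 0.535, limma unadjusted p = 0.00169, adjusted p = 0.279). Its wild-type pools were split, at 12.7 and 11.5 in replicates 1 and 4 and 31.3 and 29.3 in replicates 2 and 3, around mutant pools of 21.1 to 26.0. It was called (adjusted p = 0.0347) only with limma's eBayes without an intensity trend, among the 18 alternatives run.

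By role, the SD was larger in wild-type pools at 5 of 6 G1 genes and 2 of 2 checkpoint genes, but at 1 of 5 MCM genes and 0 of 2 mitotic cyclins. Wild-type replicate 2, whose actin ratio was high, was the highest of the 9 pools at 6 members and the lowest at 2. Mutant replicate 2, with an actin ratio of 7.98, had the same counts, and wild-type replicate 3 was the lowest at 7 members. Over all tested probe sets wild-type replicate 2 was the highest at 19.7% and the lowest at 21.2%, mutant replicate 2 at 9.15% and 9.33%, and wild-type replicate 3 was the lowest at 13.1%. Without wild-type replicate 2 the SD was larger in wild-type pools at 50.0% of all tested probe sets and at 16 of 25 members. The wild-type SD without that replicate 2 was 0.0818 for Pcna, 0.287 for Cdc20 and 0.385 for Ccnd3. The part of RNA quality in the spread of the members was otherwise not tested.

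**Figure D3:**
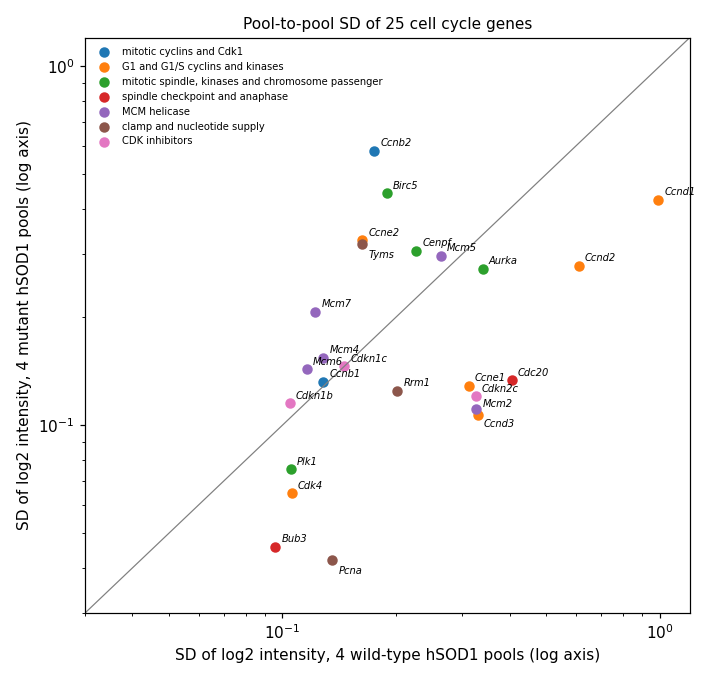
SD of log2 intensity over the 4 mutant pools (vertical, log axis) against the SD over the 4 wild-type pools (horizontal, log axis) for the 25 members, coloured by role, with the line of equal SDs. Of the points 13 lie below the line, where wild-type pools spread more, and 12 above it, with Ccnd1 at the highest wild-type SD and Ccnb2 at the highest mutant SD.

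As a list, the members departed from their mean by up to 0.07 in a pool, and all tested probe sets by up to 0.03 (medians, log2 scale). The median departure of the 25 members from their mean over the 9 pools was -0.03, 0.06, 0.07 and 0.03 in mutant replicates 1 to 4 on the log2 scale, 0.01, 0.02, -0.03 and -0.02 in the wild-type ones and -0.01 in the control. The 9 progenitor markers departed more, at -0.29 and -0.15 in mutant replicates 1 and 2, and between -0.07 and 0.08 in the other 7 pools. Markers of postmitotic neurons lay between -0.10 and 0.09. Those of sensory ganglia (5 genes) departed further still, at 0.36, 0.07, 0.22 and -0.15 in mutant replicates 1 to 4, at -0.18, -0.06, 0.18 and -0.09 in the wild-type ones and at -0.33 in the control. Between mutant and wild-type pools 4 of these 5 were higher (53.7% of all tested probe sets), 2 of them at an unadjusted limma p under 0.05 (4.93% of all tested). These were Runx1 (0.64, limma unadjusted p = 0.00559) and Sncg (0.34, limma unadjusted p = 0.00815), each with an adjusted p of 0.929. Scn9a was lower (-0.27, limma unadjusted p = 0.0880). The other lists held such genes too. Isl1, of the neuron list, differed by 0.45 (limma unadjusted p = 0.00723). Slc1a3, of the progenitor list, differed by -0.38 (limma unadjusted p = 0.00478), but by 0.16 in its other probe set above the filter. Single roles of the members, each of 2 to 6 genes, moved more than the whole list, from -0.41 for the mitotic cyclins in mutant replicate 2 to 0.28 for the checkpoint genes in wild-type replicate 1. The part of cell composition in the member values was not tested.

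**Figure D4:**
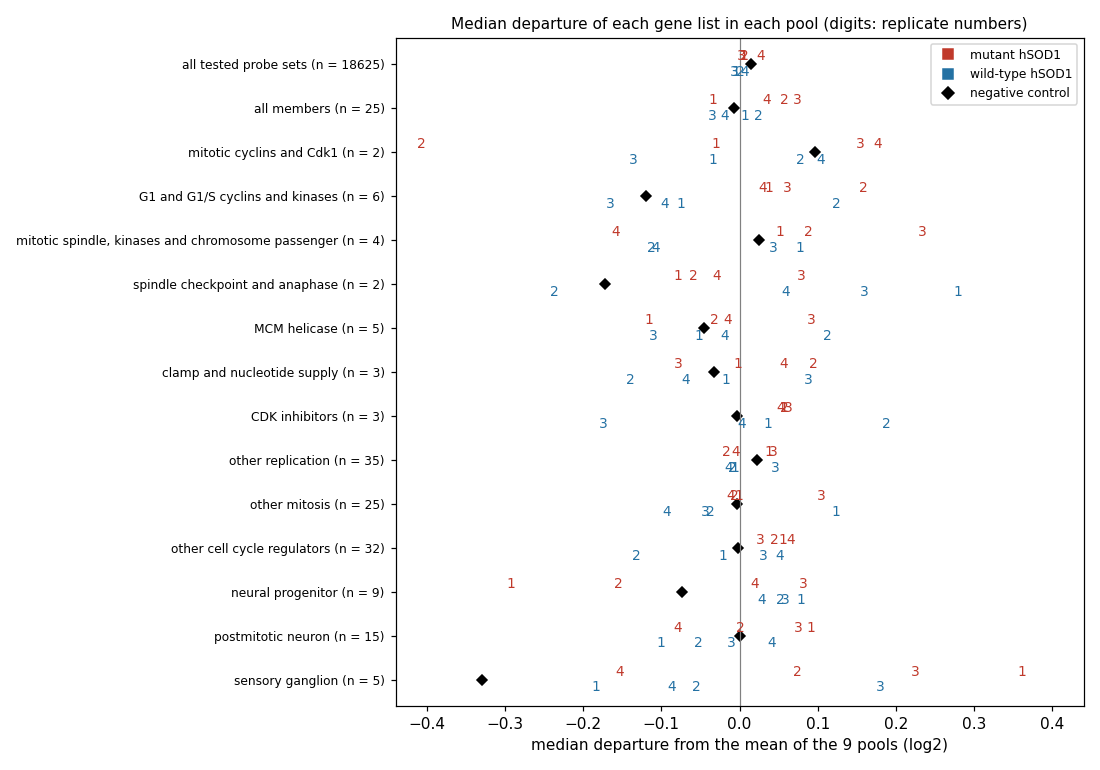
Median departure of each gene list from its mean over the 9 pools, in log2 units, with red digits for mutant and blue digits for wild-type hSOD1 replicates and a black diamond for the negative control. The 25 members stay between -0.03 and 0.07 in all pools, while the neural progenitor markers reach -0.29 and the sensory ganglion markers 0.36 in mutant replicate 1.

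Against the negative control no member passed the adjusted threshold in any of the 3 comparisons, and neither did any probe set. These comparisons share the single control pool, which limma's fit assumes to vary like the transgenic pools, and a difference from it may be a difference of that pool. For both transgenes together, limma gave 1 of 25 members at an unadjusted p under 0.05, against 3.12% of all tested probe sets. For mutant alone it gave 1, against 2.29%, and for wild-type alone 2, against 4.28%. The control lay inside the range of the 8 transgenic pools at 20 of 25 members, or 80.0%, and at 80.3% of all tested probe sets. All 8 pools lay above the control at Plk1 and Cdc20 (9.19% of all tested) and below it at Ccne2, Bub3 and Cdkn2c (10.5%). Ccne2, Bub3 and Cdkn2c each had another probe set above the filter, and there the control lay inside the range of the 8 pools.

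Plk1, a kinase that drives entry into and passage through mitosis, read 45.5, 39.5, 40.5 and 41.5 in the mutant pools, 41.1, 47.9, 39.6 and 45.0 in the wild-type pools, with 28.0 in the control. All 8 transgenic pools lay well above the control and close together. The mean of both transgenes exceeded the control by 0.48 on the log2 scale (95% interval 0.06 to 0.91, limma unadjusted p = 0.0274, adjusted p = 1.00), while mutant and wild-type pools differed by -0.05, which turned to 0.02 with the actin ratio as a covariate. Against the control, mutant pools stood at 0.46 and wild-type pools at 0.51. Cdc20 exceeded the control by 0.56 (95% interval -0.06 to 1.19, limma unadjusted p = 0.0736), with 0.45 for mutant and 0.67 for wild-type pools. Its other probe set above the filter also had all 8 pools above the control. Among its probe sets below the filter, the control lay below all 8 pools in the x_at one (11.7) and inside their range in the others (19.8 and 9.37). Ccnd3 exceeded the control by 0.38 (95% interval -0.15 to 0.90, limma unadjusted p = 0.144), but wild-type replicate 3 lay below the control. In the other mitotic kinase tested, Aurka, the control value of 29.3 lay inside the range of the pools.

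Other genes of the cell cycle, 148 in 3 lists, were examined in the same way, and 92 of them had a probe set above the filter. Between mutant and wild-type hSOD1, 60 were higher (65.2%) and 32 lower, with a median log2 difference of 0.04. Over all tested probe sets 53.7% were higher, with a median of 0.01. At an unadjusted p under 0.05 limma gave 4 of 92, beside 4.93% of all tested probe sets. After adjustment it gave 0, beside 0.0161%. The groups did not overlap at 3 of 92, or 3.26%, near the 2.95% of all tested probe sets. Of 35 other replication genes 23 were higher (65.7%), of 25 other mitosis genes 17 (68.0%), and of 32 other regulators 20 (62.5%). The genes named from these lists had the smallest unadjusted p in each direction, and none passed the adjusted threshold.

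The 3 genes without overlap were higher in mutant pools. Spc25, of the NDC80 complex that ties kinetochores to microtubules, read 37.2, 33.9, 39.0 and 40.5 in the mutant pools, 30.4, 21.2, 20.7 and 29.0 in the wild-type pools, with 30.7 in the control. The difference was 0.46 (95% interval 0.13 to 0.79, limma unadjusted p = 0.00989, adjusted p = 0.929). Prim2, a subunit of DNA primase, had means of 33.6 ± 1.01 and 24.2 ± 4.77 (SD, n = 4 each), with 25.9 in the control, and differed by 0.38 (limma unadjusted p = 0.0264, adjusted p = 0.929). Cdk7, the kinase that activates other cyclin-dependent kinases, had means of 146 ± 4.15 and 128 ± 3.27 (SD, n = 4 each), but its control value of 160.5 lay above both groups. Cdkn1a (p21, an inhibitor induced by p53) had means of 34.4 ± 5.63 and 23.7 ± 11.5 (SD, n = 4 each). Its difference of 0.49 turned to -0.01 with the actin ratio as a covariate. Orc2, of the origin recognition complex, and the kinesin Kif15 differed by 0.15 and 0.23.

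Among genes lower in mutant pools, Kif22, a chromosome-arm kinesin, had means of 27.7 ± 6.16 and 42.3 ± 7.19 (SD, n = 4 each) and differed by -0.50 (limma unadjusted p = 0.0116, adjusted p = 0.929). Slbp, which binds the stem-loop of histone messages, differed by -0.34 in its brighter probe set and by 0.33 in another, so its direction was not settled. Cdt1, which loads the MCM helicase on origins, read 81.9, 108, 93.2 and 85.1 in the mutant pools, 117, 122, 111 and 96.8 in the wild-type pools, with 61.5 in the control. Mutant and wild-type pools overlapped (difference -0.26, limma unadjusted p = 0.0535), and all 8 pools lay above the control, by 0.65 on the log2 scale (limma unadjusted p = 0.00399, adjusted p = 1.00). Ube2s and Rbl2 differed by -0.15 each, and Ccni by -0.07, which turned to 0.01 with the actin ratio as a covariate.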

How the data were processed

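Affymetrix arrays of 9 embryo pools were analysed. The deposited table holds 1 linear intensity per probe set and array, as the authors made it, with software that the sources used here do not give. The mean after trimming 2% at each end was 150.05 on every array, and array medians lay between 31.0 and 33.9, so no normalization was added. Of 31042 probe sets other than controls, the annotation gave 20826 with 1 symbol, 436 with several and 9780 with none. Intensities were taken to log2 after adding 8.25, their 25th percentile. Probe sets at or under the 40th percentile of the mean log2 value were left out, and 18625 were tested with limma 3.58.1 in R 4.3.3 (eBayes with trend), with Benjamini-Hochberg adjustment over all of them and 0.05 as the threshold. The fit of mutant against wild-type used their 8 pools, and comparisons with the control used all 9. Spread was tested by limma on absolute deviations. A gene's main probe set was the one with the highest mean. The scripts were tested on simulated data.

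Values in every pool were given for the members with the smallest p per role (2, or 1 in small roles), the 3 smallest of the spread test and of the control comparison, and Mki67, Pcna and Ccnd1 always. From each other list the 2 smallest per direction were named. The members, lists and tests were chosen with earlier results of these data known. Pools are the replicates, so p-values measure the spread between pools, and the number of arrays limits the precision. Same-numbered mutant and wild-type pools correlated at 0.12, 0.09, -0.07 and 0.20 in their departures from the group means, so the numbers were not taken as pairs. Alternatives covered normalization, pseudocount, filter, variance prior, array weights, the le2 tag, the actin ratio, all 9 arrays in 1 fit, a replicate block and leaving out each pool.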

Additional observations from a re-analysis of the deposited data

Results flagged for a closer look

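Of 76 groups of 4 pools examined, 4 had a pool far from the others, where chance gives about 1 in 20. For Cdc20, mutant replicate 3 read 38.8, and the other mutant pools read 30.6 to 31.2. For the beta-actin 3'/5' ratio, wild-type replicate 2 stood at 19.2, and the next pool at 9.20. The median departure of the other replication genes was 0.0460 in wild-type replicate 3, and the nearest wild-type pool was at -0.0066. The median departure of the other mitosis genes was 0.10 in mutant replicate 3, and the nearest mutant pool was at -0.0008.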

How the results depend on the processing

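No member was called between mutant and wild-type pools under any of the 23 alternatives run, nor against the control under any of 21. Of 601 alternative values for the genes named by rule, 596 kept their direction. Over all 25 members the difference between mutant and wild-type turned in 44 of 560, at 15 members, 9 of the 44 with the actin ratio as a covariate. Both totals include alternatives that cannot change the difference between mutant and wild-type, so there the direction was fixed in advance. These are the filters, the variance priors, 1 probe set per gene, the le2 covariate, all 9 arrays in 1 fit and the replicate block. Among the genes named by rule those that turned were Pcna (-0.0168), Plk1 (0.0165), Cdkn1a (-0.0143) and Ccni (0.0123) with the actin ratio as a covariate, and Cenpf (-0.0037) without mutant replicate 3 (0.23 without mutant replicate 4). Over all probe sets, the 3 called between mutant and wild-type became 5 with median centring, 1 with no filter, 1 with the filter at the 60th percentile, 1 with the le2 tag as a covariate, and 0 with eBayes without trend, with the le2 arrays only and with the actin covariate; leaving out a pool gave 1 to 3. With the replicate numbers as a block 3 were called, 2 of them shared, and 0 members. Against the control, the 0 called became 1 for both transgenes and for wild-type with median centring, the pseudocount of 2.06, 1 probe set per gene or the le2 arrays only, and 0 to 1 leaving out a pool (1 without wild-type replicate 1); for mutant it became 1 with that pseudocount. The members' median difference, wild-type minus control, moved from 0.00 to 0.0423 with median centring and 0.0444 with the 60th percentile filter, and for both transgenes from 0.01 to 0.0537 with that filter. In the test of spread the 1 called became 8 with eBayes without trend, 1 of them a member probe set, 0 with robust eBayes, 0 with 1 probe set per gene, and 0 to 1 leaving out a pool. The median log2 ratio of the members' SDs, -0.31, lay between -0.84 (without mutant replicate 4) and -0.0808 (without mutant replicate 3) leaving out a pool, and reached 0.01 over all alternatives. The beta-actin difference of -3.97 lay between -5.00 and -1.33 leaving out a pool (exact permutation p up to 0.2). The GAPDH difference of -0.33 (exact permutation p = 0.0571) lay between -0.43 and -0.11, with p = 0.0286 without wild-type replicate 1. The causes were not tested. Low signal limits the 10 genes below the filter, and 4 pools per group limit every comparison of spread.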
